A study of Bos taurus with 96 samples.

Results

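ADIPOQ, FABP4, CIDEC, LPL and DGAT2, 5 genes of fat cells and of lipid storage, were chosen by name, and their counts were followed through the transition from pregnancy to lactation in muscle biopsies, with liver of the same cows beside them. They are 5 of the 24616 genes in the count files, with the identifiers ENSBTAG00000019813 (ADIPOQ), ENSBTAG00000037526 (FABP4), ENSBTAG00000007969 (CIDEC), ENSBTAG00000012855 (LPL) and ENSBTAG00000001154 (DGAT2). The 16 animals were Holstein cows bred to a similar merit for milk yield, of which 8 carried a high (Fert+) and 8 a low (Fert-) genetic merit for fertility. Fert+ and Fert- are therefore classes of breeding value and not alleles of a single gene. Each cow gave a liver punch and a punch of the semitendinosus muscle in late pregnancy (LP), in early lactation just after calving (EL) and in mid lactation (ML), so that 96 libraries were made, 48 from either tissue, with 16 at a time-point.

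Adipose tissue stores fatty acids as triacylglycerol in lipid droplets, and cattle muscle holds fat cells between its fibres and bundles. ADIPOQ encodes adiponectin, a hormone secreted by adipocytes. FABP4 is the fatty acid binding protein of adipocytes and is also made by macrophages and small-vessel endothelium, and CIDEC is a lipid droplet protein that promotes the growth of large droplets. LPL is the lipase that releases fatty acids from circulating lipoproteins at the vessel wall, and is made by muscle fibres as well as by adipocytes. DGAT2 joins the last fatty acid to diacylglycerol and so completes triacylglycerol. Around calving, dairy cows draw on body fat to support milk production.

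Liver libraries held between 14966847 and 26358063 counts and muscle libraries between 15279337 and 22018740. Levels are given as CPM, counts scaled to the size of the library with TMM factors and not to gene length, so they were compared between samples for a gene and not between genes. The tissue labels held in the marker genes. ACTA1, the skeletal muscle actin, had median CPM of 42480, 7525 and 53730 in muscle at LP, EL and ML and no more than 0.140 CPM in any liver library, while ALB, serum albumin, had medians of 100800, 56560 and 91000 in liver. A set of 13 libraries (batch B, 8 of liver and 5 of muscle) stood apart by counts in 19 genes that were near 0 in the other libraries. The batch B muscle libraries were all from Fert- cows 164 and 419. In liver batch B leaned the other way, with 2 Fert+ libraries at each time-point and 1 Fert- library at EL and at ML. Batch and genotype were therefore unevenly mixed in both tissues. Where a call of the 5 genes changed without these libraries, this is stated. Nothing in the labels tells more about this batch.

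In muscle, ADIPOQ had its lowest median at EL and its highest at ML. Its level ran from 1.03 to 23.9 CPM at LP with a median of 4.58, from 0.391 to 15.8 CPM at EL with a median of 3.03, and from 1.57 to 45.6 CPM at ML with a median of 8.82 (n = 16 cows each). The ranges overlapped at all time-points, and a few cows stood high at each of them. Cow 996 was highest at LP, cow 3397 at EL and cow 982 at ML. ADIPOQ fell from LP to EL (log2 fold change -0.97, SE 0.42, adjusted p = 0.048, edgeR quasi-likelihood test with Benjamini-Hochberg adjustment over 12675 genes) and rose from EL to ML (1.40, SE 0.42, adjusted p = 0.0039). It was lower at EL than at LP in 12 of 16 cows (exact sign-flip permutation test on the within-cow changes of log2(CPM + 1), two-sided, p = 0.0146) and higher at ML than at EL in 14 of 16 (exact permutation p = 0.00125). Between LP and ML the fitted difference was 0.43 (SE 0.41, adjusted p = 0.60).

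The fall from LP to EL lay close to the threshold of 0.05. Its adjusted p was 0.075 without a gene filter and 0.067 without batch B, and it passed in 7 of 16 fits that left out 1 cow. It was lost without cow 33, 419, 756, 782, 829, 982, 996, 3445 or 3847, with the fold change between -1.21 and -0.69. The rise from EL to ML passed in 16 of 16 such fits, with fold changes from 1.07 to 1.67. Both calls were made in Fert- cows alone (-1.49, adjusted p = 0.042, and 2.04, adjusted p = 0.0050) and neither in Fert+ cows alone (-0.44, adjusted p = 0.59, and 0.76, adjusted p = 0.30). The fits of Fert- cows alone called 40.4% and 46.0% of all genes in these steps, and those of Fert+ cows alone 35.1% and 42.1%. The mean within-cow fall from LP to EL was -0.37 in Fert+ and -1.18 in Fert- cows. The interaction of genotype and time-point had an adjusted p of 0.945, so the genotypes were not shown to differ. With the cow as a replicate block the changes were -0.92 (adjusted p = 0.037) and 1.503 (adjusted p = 0.0011). ADIPOQ was 1 of 5 members called in either step, and muscle changed broadly there. The test called 53.9% of all genes between LP and EL and 59.4% between EL and ML, so a call in these steps was the more frequent outcome for any gene.

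**Figure D1:**
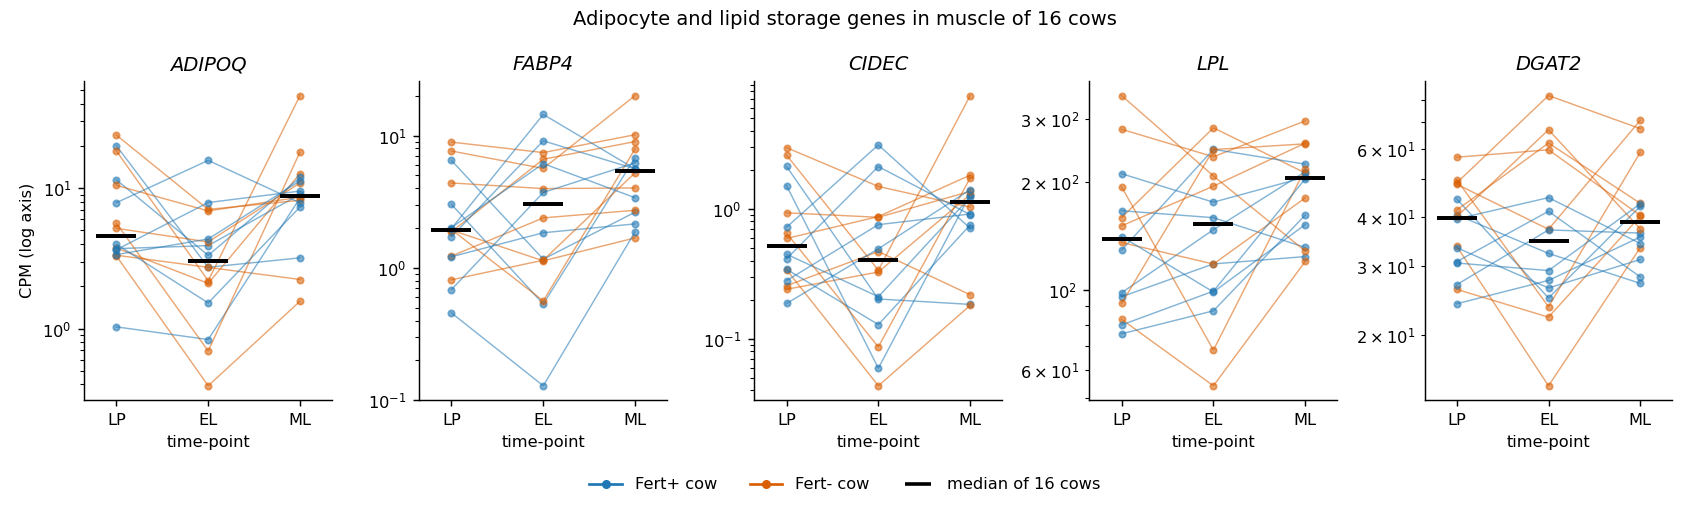
CPM of the 5 genes in muscle (log axis) at LP, EL and ML, with a line for each of the 16 cows (blue Fert+, orange Fert-) and a black bar at the median. The median of ADIPOQ went from 4.58 to 3.03 and 8.82 CPM, that of FABP4 from 1.94 to 3.05 and 5.42 CPM, and the lines cross often.

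FABP4 did not share the low level at EL. It ran from 0.457 to 8.92 CPM at LP (median 1.94), from 0.129 to 14.4 CPM at EL (median 3.05) and from 1.69 to 20.1 CPM at ML (median 5.42). Its medians were in the order LP, EL, ML, with wide overlap of neighbouring time-points. From LP to ML the log2 fold change was 1.02 (SE 0.43, adjusted p = 0.16), and 1.10 with an adjusted p of 0.049 when the cow was a replicate block. The level was higher at ML in 13 of 16 cows (exact permutation p = 0.0017). No member passed the unblocked edgeR test between LP and ML (DESeq2 also called 0 of 5), where 6.08% of all genes did, and FABP4 had an unadjusted p under 0.05.

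CIDEC was the least counted of the genes in muscle, with median counts of 7.5, 9.5 and 19.0 per library. It ran from 0.187 to 2.95 CPM at LP (median 0.519), from 0.0435 to 3.101 at EL (median 0.403) and from 0.181 to 7.43 at ML (median 1.13). The groups overlapped throughout. Fitted log2 differences were -0.33 (SE 0.48) from LP to EL and 0.89 (SE 0.47) from EL to ML, with adjusted p of 0.58 and 0.098.

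LPL ran from 75.5 to 348 CPM at LP (median 138), from 54.1 to 283 at EL (median 153) and from 120 to 296 at ML (median 205). The lowest ML level lay above the lowest of both other time-points. LPL was higher at ML than at LP in 13 of 16 cows (exact permutation p = 0.032) and higher at ML than at EL in 12 of 16 (exact permutation p = 0.027). These exact p were not adjusted for the number of tests. In the edgeR fit, the LPL difference from LP to ML was 0.36 (SE 0.20, adjusted p = 0.33), with no adjusted p below 0.11 over 6 alternatives. From EL to ML it was 0.28 (SE 0.20, adjusted p = 0.23), and 0.38 with an adjusted p of 0.046 when the cow was a replicate block.

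DGAT2 had almost the same median at the 3 time-points, 39.9, 34.7 and 38.8 CPM, within ranges of 24.0 to 57.0 at LP, 14.8 to 82.0 at EL and 27.1 to 70.9 at ML. Its spread was widest at EL, with an SD of 18.9 CPM against 9.70 at LP and 12.99 at ML. Between time-points 8 of 16 cows were higher and 8 lower in each of the 3 comparisons. The largest fitted difference, from LP to ML, was 0.11 (SE 0.16, adjusted p = 0.75).

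Transcripts of muscle fibres and connective tissue also moved between these time-points. All 9 identifiers of the skeletal muscle list were lower at EL than at LP and higher at ML than at EL, with ACTA1 at -1.99 and 2.41 and CKM, muscle creatine kinase, at -1.05 and 1.28. Their summed level had a median of 185400 CPM at LP (range 129200 to 206900), 57750 at EL (18060 to 184200) and 206400 at ML (174900 to 247300). The 3 matched connective tissue genes, COL1A1, DCN and LUM, also fell and then rose, with COL1A1, type I collagen, at -1.67 and 1.25. Of the 2 endothelial genes, VWF rose from LP to EL by 0.56 and TEK differed by -0.05 (adjusted p = 0.78). The part of these shifts in the ADIPOQ result was not tested. In tissue homogenates, fewer cells of a type and less RNA per cell cannot be told apart.

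The liver-secreted proteins were scarce in muscle but not evenly so. The sum of the hepatocyte list had a median of 2.77 CPM at LP (range 1.62 to 7.004), 2.80 at EL (1.13 to 37.2) and 10.9 at ML (2.75 to 154). From EL to ML 4 of 5 tested genes of that list were called higher, where 28.5% of all genes were. Relations of these 5 genes with the members were computed over the 48 muscle libraries, on residuals from the genotype and time-point means. With ADIPOQ r ran from -0.194 (FGB) to 0.057 (APOA1), with ALB at -0.18. With FABP4 it ran from -0.039 (TTR) to 0.281 (APOA1), and with CIDEC from -0.136 (TTR) to -0.031 (APOA1). With LPL it ran from -0.288 (APOA1) to 0.071 (ALB), and with DGAT2 from -0.432 (APOA1) to 0.217 (ALB).

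Only some of the other fat and lipid genes could be followed, because symbols were known for 37 of 97 symbols in the 12 lists, and these came largely from genes the study itself had listed. Of 12 adipocyte markers, 3 were matched (TUSC5, CFD and THRSP) and TUSC5 alone was tested in muscle. TUSC5, a membrane protein of adipocytes that takes part in glucose transporter traffic, differed by -0.57 from LP to EL (adjusted p = 0.31) and by 0.52 from EL to ML (adjusted p = 0.35). CFD and THRSP had muscle medians of at most 0.119 and 0.445 CPM. EBF1, an adipogenic transcription factor, differed by 0.14 from EL to ML (adjusted p = 0.28). In triacylglycerol synthesis, LPIN1, a phosphatidate phosphatase, rose by 1.76 from LP to EL and fell by 2.59 from EL to ML. PCK1, which serves glyceroneogenesis, rose by 0.92 from EL to ML, at low muscle medians of 0.342 and 0.495 CPM. Its liver medians at EL and ML were 3289 and 2954 CPM. The part of liver transcripts in the muscle rise of PCK1 was not tested.

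Among 6 genes of fatty acid uptake and binding, 3 rose from LP to EL (ACSL1, an acyl-CoA synthetase, by 0.34, CD36, a fatty acid receptor, by 0.23 and FABP3, the fatty acid binding protein of muscle, by 0.53) and the same 3 fell from EL to ML. With 53.9% and 59.4% of all genes called in these steps, 3 of 6 was near the share of any genes. The median of the list from LP to EL was 0.09, against 0.02 over all genes. In fatty acid synthesis, SCD, the stearoyl-CoA desaturase, fell by 0.74 and then rose by 1.78, FASN rose by 0.52 from EL to ML, and ACACA rose by 0.32 from LP to EL. Of these 4 genes 3 were called higher at ML than at LP, where 2.46% of all genes were. The list's median from LP to ML was 0.41 against 0.01 over all genes.

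ADIPOQ, FABP4 and CIDEC varied together from cow to cow at each time-point, and no relation of LPL or DGAT2 with them passed the test. Correlations were computed on log2(CPM + 1) over 16 cows at a time, for 90 relations in all, with two-sided permutation p adjusted by Benjamini-Hochberg. At each time-point the same 3 of 10 pairs passed by Pearson's r.

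The closest pair was ADIPOQ with CIDEC. Pearson's r took values of 0.928, 0.867 and 0.913 at LP, EL and ML (adjusted permutation p = 0.00030, 0.00030 and 0.00036), and Spearman's rho was 0.826, 0.809 and 0.726 (adjusted permutation p = 0.0078, 0.0078 and 0.032). Without the 2 cows farthest from the median of ADIPOQ, r was 0.874, 0.784 and 0.855. It was 0.885, 0.851 and 0.778 within the Fert+ cows and 0.981, 0.954 and 0.949 within the Fert- cows.

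ADIPOQ and FABP4 had r of 0.913, 0.698 and 0.764 at LP, EL and ML (adjusted permutation p = 0.00030, 0.023 and 0.0062), and rho of 0.747, 0.653 and 0.606 (adjusted permutation p = 0.023, 0.069 and 0.0996). Without the 2 farthest cows r fell to 0.849, 0.579 and 0.510. At ML the relation was 0.915 among Fert- cows and 0.303 among Fert+ cows, and that difference was not tested. FABP4 and CIDEC had r of 0.897, 0.795 and 0.779 (adjusted permutation p = 0.00036, 0.0015 and 0.0062), rho of 0.750, 0.800 and 0.647 (adjusted permutation p = 0.023, 0.0078 and 0.069), and r of 0.786, 0.717 and 0.524 without the 2 farthest cows. Within batch A the 3 pairs had r from 0.750 to 0.928.

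LPL had r between -0.383 and 0.291 with ADIPOQ, FABP4 and CIDEC, and DGAT2 between -0.498 and 0.350. None of these 18 relations passed. At ML, with the genotype means removed, DGAT2 had r of -0.668 with ADIPOQ, -0.679 with FABP4 and -0.543 with CIDEC, against -0.498, -0.323 and -0.273 before (adjusted permutation p = 0.098, 0.081 and 0.25). Within Fert- cows these were -0.861, -0.871 and -0.698, and within Fert+ cows 0.123, -0.157 and 0.099, a difference that was not tested. LPL and DGAT2 had r of 0.640, 0.593 and 0.518 with each other at LP, EL and ML (rho 0.644, 0.597 and 0.538), with adjusted permutation p of 0.057, 0.10 and 0.23 for r. Within Fert+ cows these r were 0.142, -0.174 and 0.541, and within Fert- cows 0.834, 0.742 and 0.441. On CPM without logs the pair passed at LP (r = 0.688, adjusted permutation p = 0.019).

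**Figure D2:**
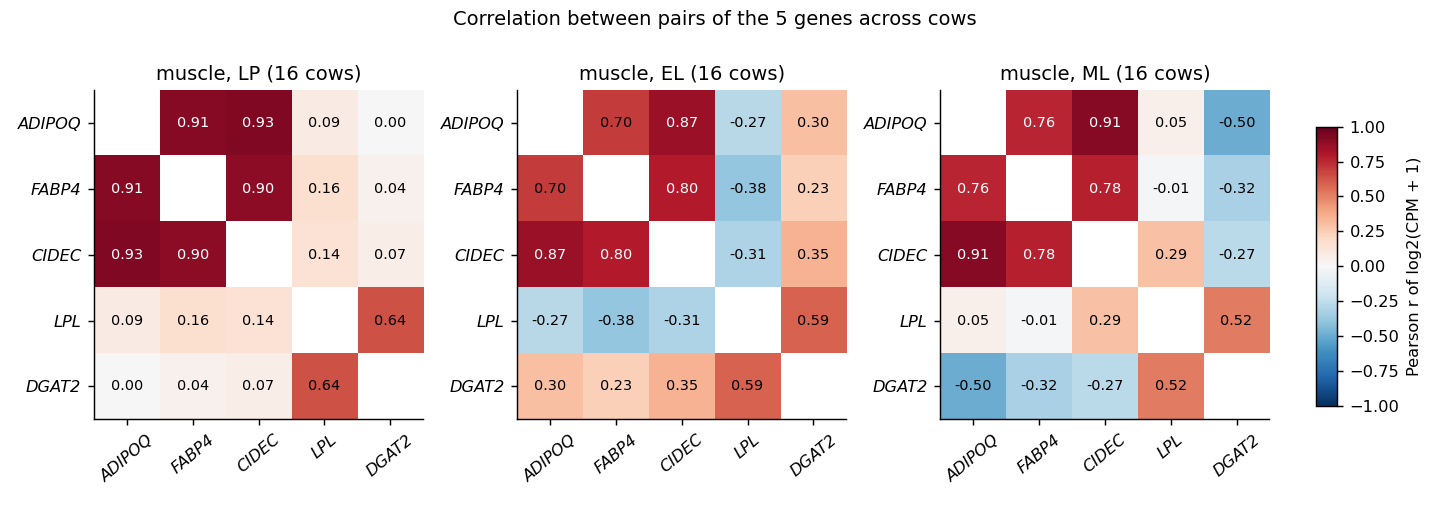
Pearson's r of log2(CPM + 1) for each pair of the 5 genes across 16 cows in muscle at LP, EL and ML (colour from blue, -1, to red, 1). The ADIPOQ, FABP4 and CIDEC corner holds r of 0.698 to 0.928 at the 3 time-points, and LPL with DGAT2 holds 0.518 to 0.640.

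**Figure D3:**
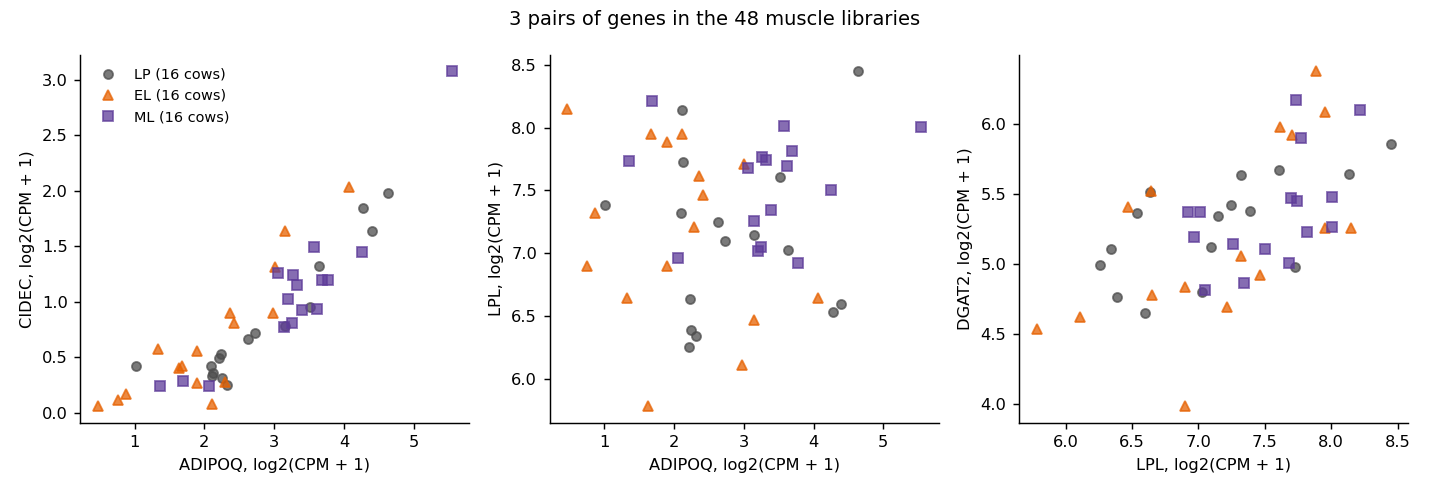
Levels of 3 pairs of genes in the 48 muscle libraries, each point a library on log2(CPM + 1) axes, with LP as circles, EL as triangles and ML as squares. ADIPOQ and CIDEC lie along a line at each time-point, while LPL shows no such line with ADIPOQ (r 0.085, -0.274 and 0.052).

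Levels of a gene at different time-points were weakly related among cows. Of 15 relations 14 were positive and none passed after adjustment. Over the 16 cows, the level of ADIPOQ had r of 0.363 between LP and EL, 0.231 between LP and ML and 0.096 between EL and ML. For FABP4 these were 0.290, 0.479 and 0.436, for CIDEC 0.055, 0.358 and -0.046, for LPL 0.437, 0.144 and 0.496, and for DGAT2 0.439, 0.517 and 0.244. Cow 33 had 20.03 CPM of ADIPOQ at LP, 2.73 at EL and 3.19 at ML, and cow 982 had 18.4, 2.19 and 45.6. In the same libraries of cow 982, CIDEC had 2.59, 0.337 and 7.43 CPM, while FABP4 had 7.64, 5.64 and 20.05 CPM, a smaller fall at EL. In those of cow 33, FABP4 had 6.48, 1.16 and 2.64 CPM. CIDEC of cow 33 had 2.12, 0.202 and 0.184 CPM, with no rise at ML. The highest r was that of DGAT2 between LP and ML (0.517, rho = 0.524, permutation p = 0.041 and 0.040, adjusted 0.23 and 0.20).

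The genes most like each member were ranked by r over the 48 muscle libraries, on residuals from the genotype and time-point means. These libraries share cows, and the values are descriptive. Among 12674 other genes, CIDEC ranked 2 for ADIPOQ (r = 0.907) and 1 for FABP4 (r = 0.798), and FABP4 ranked 4 for ADIPOQ (r = 0.780). TUSC5 had r of 0.928 with ADIPOQ, 0.798 with FABP4 and 0.933 with CIDEC. The other named genes were ACSM1, a medium-chain acyl-CoA synthetase (r = 0.597, 0.602 and 0.641), ACTB, cytoplasmic actin, for ADIPOQ (0.584) and FABP4 (0.652), and PPP1R1B, a phosphatase inhibitor, for CIDEC (0.613). The 99th percentile of r over all genes was 0.438, 0.430 and 0.411 for these members.

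LPL and DGAT2 had other neighbours. LPL ranked 143 among all genes for DGAT2, and DGAT2 ranked 73 for LPL (r = 0.546). The named genes most like LPL were PRDX2, a peroxiredoxin (0.674), SOD2, the mitochondrial superoxide dismutase (0.668), LDHB, lactate dehydrogenase B (0.664), MDH1, malate dehydrogenase (0.652), and COX5A, a subunit of cytochrome c oxidase (0.638). For DGAT2 they were PDLIM1, a PDZ and LIM domain protein (0.805), EHHADH, an enzyme of peroxisomal beta-oxidation (0.712), FCGRT, the neonatal Fc receptor (0.666), FAM162A (0.650) and NDUFB6, a subunit of complex I (0.648). FABP3 had r of 0.608 with LPL and -0.285 with ADIPOQ. Of the 9 skeletal muscle identifiers, MB, myoglobin, stood apart with r of 0.576 with LPL, and the other 8 ran from -0.132 to 0.233. With ADIPOQ MB had r of 0.139 and the other 8 ran from -0.426 (TNNT3, fast troponin T) to -0.127. With FABP4 all 9 were negative, from -0.541 (TNNT3) to -0.126 (MB), with ACTA1 at -0.516. With CIDEC they ran from -0.344 (TNNT3) to 0.213 (MB). Without removal of the means, the ranks of LPL and DGAT2 neighbours moved (PRDX2 from 2 to 168, while LPL and DGAT2 ranked 9 for each other), and TUSC5 and CIDEC remained the first and second gene for ADIPOQ in the reverse order.

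Liver carried these genes differently. ADIPOQ was all but absent, with 0 counts in 13, 14 and 15 of 16 libraries at LP, EL and ML and at most 2 counts in any. Over the 16 libraries of a time-point, 3, 3 and 1 counts stood against 2147, 1393 and 2852 in muscle, which made muscle 761-fold (95% exact interval 260 to 3691), 558-fold (191 to 2710) and 3239-fold (581 to 128000) higher. These intervals cover counting error only. Of the matched adipocyte markers, CFD had liver medians of 1.105, 1.193 and 1.793 CPM at LP, EL and ML. THRSP had liver medians of 5.898, 1.695 and 12.93 CPM, and both genes had lower medians in muscle. TUSC5 had a liver median of 0 at each time-point. FABP4 was also low in liver, with medians of 0.104, 0.0936 and 0.272 CPM and a highest value of 1.64, and muscle was higher by 4.14 (SE 0.51), 4.68 (SE 0.51) and 4.004 (SE 0.46) on the log2 scale.

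LPL had liver medians of 4.55, 4.63 and 7.02 CPM, and muscle was higher by 5.05 (SE 0.25), 4.92 (SE 0.25) and 4.64 (SE 0.25). Muscle and liver ranges of LPL did not overlap at any time-point. The share of all genes separated in this way is not given here. CIDEC was lower in muscle at LP (-1.20, SE 0.41, adjusted p = 0.0053) and EL (-1.32, SE 0.41, adjusted p = 0.0024), and at ML differed by -0.26 (SE 0.40, adjusted p = 0.55). DGAT2 had liver medians of 40.8, 30.6 and 40.7 CPM, and muscle exceeded liver at EL by 0.53 (SE 0.17, adjusted p = 0.0024). At LP and ML the differences were -0.08 (SE 0.17, and 0.04 without a gene filter) and 0.22 (SE 0.17, and 0.38 with an adjusted p of 0.035 without a gene filter). In these fits over 96 libraries, 4, 5 and 3 of 5 members were called at LP, EL and ML, where 87.2%, 87.8% and 86.5% of all genes were.

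**Figure D4:**
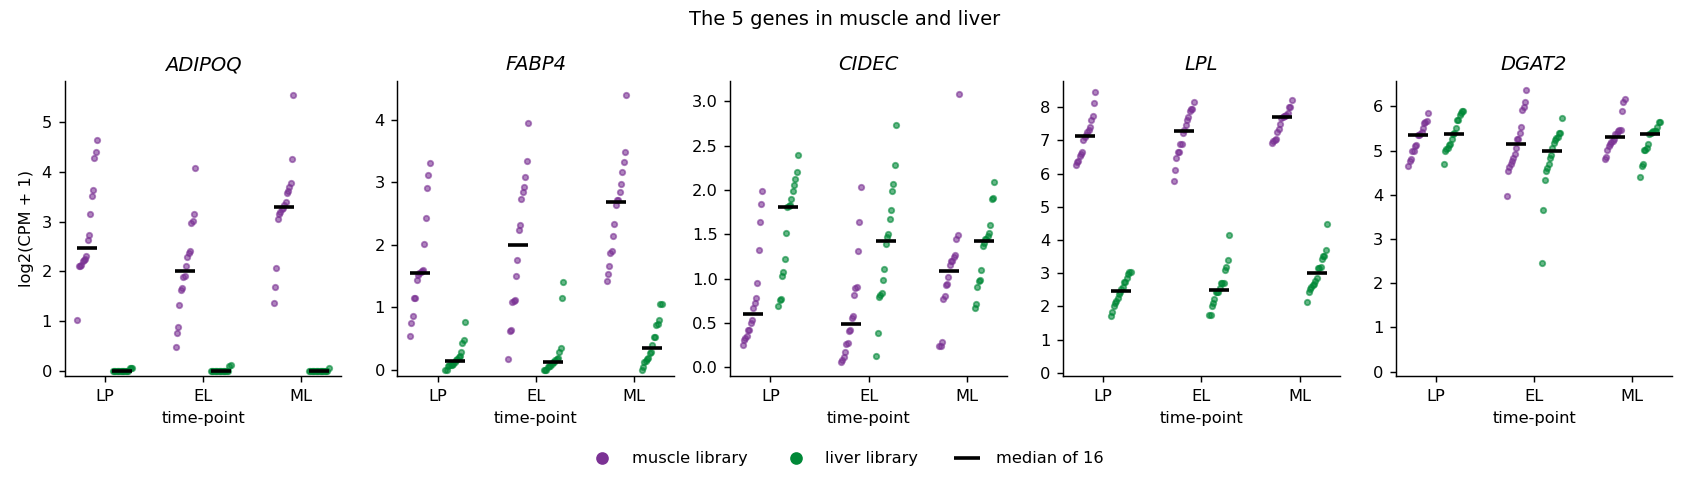
log2(CPM + 1) of the 5 genes in muscle (purple) and liver (green) libraries at LP, EL and ML, with a bar at the median of 16. Each panel has its own axis. ADIPOQ lies at 0 in nearly all liver libraries, LPL is separated between tissues, and DGAT2 overlaps.

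DGAT2 in liver had its lowest median at EL. It ran from 25.0 to 58.1 CPM at LP, from 4.49 to 51.9 at EL and from 20.02 to 49.2 at ML, and the change from LP to EL was -0.56 (SE 0.16, adjusted p = 0.045). It was lower at EL in 13 of 16 cows (exact permutation p = 0.0010). DGAT2 was 1 of 4 tested members called, where 3.24% of all genes were. The mean within-cow change was -1.004 in Fert+ and -0.23 in Fert- cows, and the fits of each genotype alone gave -0.88 (adjusted p = 0.017) and -0.25 (adjusted p = 0.999). The fit of Fert+ cows alone called 7.86% of all genes in this step and that of Fert- cows alone 0.0%. The genotype by time-point interaction had an adjusted p of 0.81, so a difference between genotypes was not shown. The call passed in 4 of 16 fits that left out 1 cow, with changes of -0.64 to -0.51, and was lost without any of the other 12. The adjusted p was 0.063 without a gene filter and 0.10 without batch B, which holds the lowest library (cow 3847). Without batch B 0.0% of all genes were called in this step. From EL to ML DGAT2 differed by 0.36 (SE 0.16, adjusted p = 0.075), and by 0.40 (adjusted p = 0.025) when the cow was a replicate block.

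LPL in liver rose from LP to ML by 0.76 (SE 0.24, adjusted p = 0.029), and was higher at ML in 15 of 16 cows (exact permutation p = 6.104e-05). It was the only one of the 4 tested members called in this comparison, where 12.5% of all genes were. The call was lost without cow 33 or cow 426 (fold changes over the 16 fits from 0.54 to 0.84), and cow 426 had the highest level, 21.3 CPM against a median of 7.02. From EL to ML 0 of 4 members passed in liver, where 38.2% of all genes did (DESeq2 also called 0). Unadjusted p was under 0.05 for LPL, DGAT2 and FABP4 in that step. Without batch B, LPL (0.67, adjusted p = 0.030) and FABP4 (1.51, adjusted p = 0.033) passed, where 30.2% of all genes did.

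The response of DGAT2 from LP to EL differed between tissues by 0.62 (SE 0.24, adjusted p = 0.043), with a muscle change of 0.03 and a liver change of -0.56. It was the only call among FABP4, CIDEC, LPL and DGAT2 in this step, where 25.7% of genes were called, and none of the 4 was called from EL to ML (35.9%) or from LP to ML (7.32%). For ADIPOQ the liver counts were too few for this comparison (SE of 2.54, 1.88 and 1.41 on the log2 scale). The adjusted p of DGAT2 was 0.086 under RLE scaling and 0.11 when no genes were filtered out. Among cows, the liver level of a gene was not related to its muscle level at the same time-point in any of 15 relations after adjustment (r from -0.475 to 0.435, rho from -0.364 to 0.678). The closest was FABP4 at EL, with r of 0.435 (adjusted permutation p = 0.32) and rho of 0.678 (permutation p = 0.0053, adjusted 0.068). Its r was 0.763 within Fert+ and 0.716 within Fert- cows, and it passed with the genotype means removed (0.494, adjusted permutation p = 0.031). The ADIPOQ relations rest on the 3, 2 and 1 liver libraries that held any count. In liver, FABP4 and LPL at ML were the only 1 of 30 pairs to pass by r (0.705, adjusted permutation p = 0.018, rho 0.641, adjusted permutation p = 0.069, and r = 0.522 without the 2 farthest cows).

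The comparison of Fert+ with Fert- cows was the purpose of the study. All 5 genes appear in gene lists that the study drew from these same samples, so neither the direction of the differences here nor a call is independent evidence. No member was called at any time-point by the quasi-likelihood test on the 16 libraries of a time-point, with FABP4 and ADIPOQ in liver and CIDEC in muscle at LP and EL taken from the fit without a gene filter. The test called 0.0% of all genes at LP and ML in muscle, 0.00831% (1 gene) at EL, and 0.0% at the 3 time-points in liver. A single fit over the 48 libraries of a tissue called 4.45% of all genes in muscle at EL and none of the members there. In liver at EL it called 2.62% of all genes and 1 member, FABP4 (-2.84, SE 0.76, adjusted p = 0.037). An unadjusted p under 0.05 was seen for 1, 0 and 1 of 5 members in muscle at LP, EL and ML and for 0, 2 and 1 in liver, and DESeq2 called none of those it gave an adjusted p. It gave none for ADIPOQ and FABP4 in liver, for CIDEC in muscle at LP and EL, or for ADIPOQ and FABP4 in muscle at EL.

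In muscle at ML all 5 genes had lower means in Fert+ cows. CIDEC differed by -1.02 (SE 0.60, adjusted p = 0.72), FABP4 by -0.83 (SE 0.45, 0.70), ADIPOQ by -0.66 (SE 0.54, 0.81), DGAT2 by -0.49 (SE 0.16, 0.49) and LPL by -0.24 (SE 0.18, 0.80), with adjusted p of the quasi-likelihood test as the second value in each parenthesis. For ADIPOQ and CIDEC most of the difference rested on cow 982, and for FABP4 a part of it. ADIPOQ was 8.58 ± 2.69 CPM in Fert+ and 13.5 ± 14.04 in Fert- cows (SD, n = 8), with medians of 8.77 and 9.75, and without cow 982 the fitted difference was -0.06. That of CIDEC was -0.23 and that of FABP4 -0.45 without this cow. Medians in Fert+ and Fert- cows were 0.9065 and 1.324 CPM for CIDEC and 4.49 and 6.585 CPM for FABP4.

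DGAT2 at ML was 34.8 ± 6.04 CPM in Fert+ and 49.0 ± 14.5 in Fert- cows (SD, n = 8), from 27.1 to 43.3 and from 33.5 to 70.9 (exact permutation test, 8 against 8, two-sided, p = 0.018). It was lower in Fert+ cows at LP and EL as well, by -0.36 (SE 0.15) and -0.49 (SE 0.30). At EL the signs of the adipocyte genes were the opposite of those at ML, with ADIPOQ at 0.62 (SE 0.57), FABP4 at 0.36 (SE 0.68) and CIDEC at 0.69 (SE 0.73, from the fit without a gene filter). The genotype by time-point interaction of the 5 genes had adjusted p from 0.90 to 1.0 in muscle and from 0.81 to 1.0 for the 4 genes tested in liver (0.0% of all genes called in both tissues).

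When all genes were given one common dispersion, as the study's methods name, the edgeR exact test called 4 of 5 members at ML in muscle (FABP4, CIDEC, ADIPOQ and DGAT2, adjusted p = 4.6e-05, 0.00024, 0.0016 and 0.039), where 1.78% of all genes were called, and FABP4 at LP (adjusted p = 0.019), where 1.79% were. As the genes appear in the study's own lists from these samples, these calls and their excess over all genes are not independent evidence. At EL in muscle none of the 4 members tested was called (3.64% of all genes were), CIDEC being filtered out there. In liver none of DGAT2, CIDEC and LPL was called (2.38%, 2.31% and 2.11% of all genes at LP, EL and ML), and ADIPOQ and FABP4 were filtered out. In muscle the fold changes of both tests were equal when rounded to 2 decimals, apart from CIDEC at ML (-1.01 in the exact test).

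In liver at EL, DGAT2 was 22.02 ± 10.7 CPM in Fert+ and 37.5 ± 7.71 in Fert- cows (SD, n = 8), from 4.49 to 38.3 and from 27.4 to 51.9. The difference of -0.76 (SE 0.30) had an adjusted p of 0.39 in edgeR's quasi-likelihood test and an exact permutation p of 0.0042 for the single gene. FABP4 in liver was too low for the gene filter, and in the unfiltered fit it differed by -2.78 (SE 0.82, adjusted p = 0.42) at EL and by -1.45 (SE 0.55, adjusted p = 0.43) at ML. At EL these were 0 to 3 counts in Fert+ libraries and 0 to 34 in Fert- libraries, with 17 and 34 counts in cows 982 and 419 and at most 5 in the other Fert- libraries. The EL liver library of cow 419 belonged to batch B. So did those of Fert+ cows 33 and 3847, and cow 3847 had the lowest DGAT2 level. The part of the batch in these differences was not tested.

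**Figure D5:**
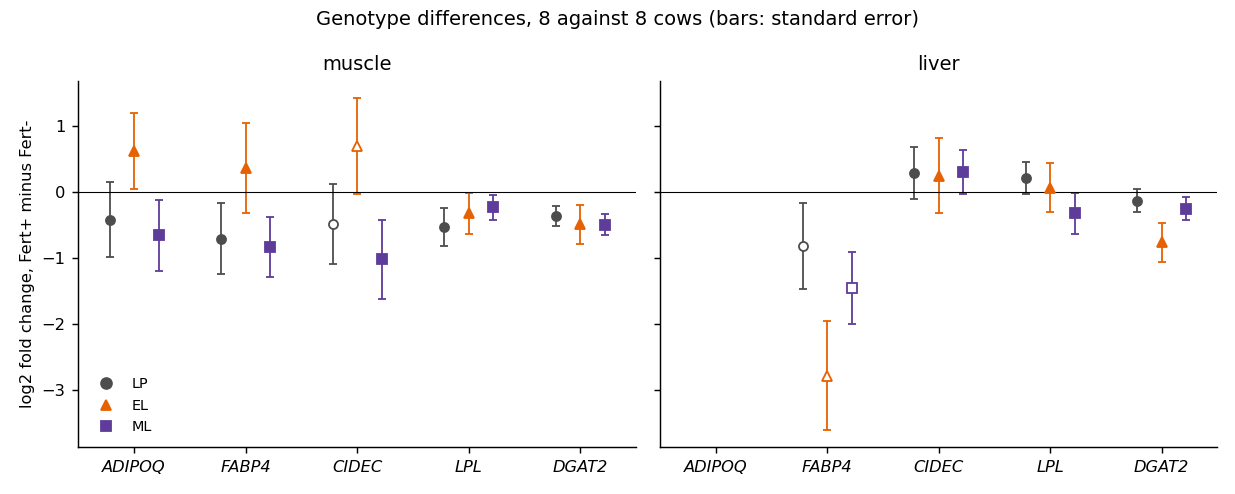
log2 fold change of Fert+ minus Fert- cows for the 5 genes in muscle and liver (8 against 8 cows, bars are standard errors), with LP as circles, EL as triangles and ML as squares. Open symbols come from the fit without a gene filter, and ADIPOQ is not drawn for liver. At ML in muscle the values run from -1.02 to -0.24.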

How the data were processed

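The authors deposited, for each of the 96 libraries, the number of read pairs per Ensembl gene (Ensembl annotation, UMD3.1) as raw counts with no normalization. Per the labels, polyadenylated RNA was prepared with the TruSeq v2 kit and sequenced, base calls were made with CASAVA 1.8, reads were aligned with STAR and counted with featureCounts, and the study's methods add trimming and a filter for proper pairs. Tables of the whole series, with 96 count columns that were not matched to samples, were not used for values. Gene symbols (2250 identifiers) came from the study's additional files. Strand was not given in the sources used here.

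Groups came from the labels. The 5 genes, the lists, the tests and the alternatives were chosen with earlier results of these data known. Counts were fitted with edgeR 4.0.16 (R 4.3.3, limma 3.58.1, TMM, filterByExpr, robust quasi-likelihood test, Benjamini-Hochberg, threshold 0.05), time-points over 48 libraries per tissue, genotypes over 16 and tissues over 96, without the cow as a block. Standard errors come from these fits. DESeq2 1.42.0 was an alternative. Libraries of one cow are paired by the animal: residuals of the same cow had a median r of 0.258 in muscle (42 of 48 pairs above 0.1) and 0.235 in liver (39 of 48). Permutation tests used 100000 draws or all arrangements. The exact p of sign flips and of genotypes were not adjusted for the number of tests. The smallest possible p was 3.052e-05 for sign flips, 0.0001554 for genotypes and 1e-05 for correlations. No 2 libraries of a tissue and time-point held identical counts. The fits were tested on simulated counts. Batch B was defined by 19 genes whose median count did not exceed 2 in liver or muscle but which reached 50 or more in single libraries.

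Named genes were the 5 members, the 5 named genes most like each, up to 4 per list by smallest p in muscle, and ALB, ACTA1 and CKM. Other genes named are members of the lists. Biopsies of different cows are biological replicates. Genotype fits within a time-point held a single library of each cow, so their p-values measure spread between animals. Fits over several time-points or both tissues held several libraries of each cow. Unless the cow was a replicate block, these fits treated such libraries as independent. Their p-values therefore mix variation within and between cows. Sequences and coordinates are not given here.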

Additional observations from a re-analysis of the deposited data

Results flagged for a closer look

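In 60 groups of 8 libraries (gene, tissue, time-point and genotype), 9 held a sample far from the others by Dixon's ratio. Chance marks about 1 in 20 groups. Of these 9, 4 are ADIPOQ in liver, where single libraries with 1 or 2 counts stand against 0: cow 33 at EL (0.0870 CPM), cow 419 at LP (0.0424), cow 982 at EL (0.0720) and cow 164 at ML (0.0444). FABP4 in liver had cow 3434 highest at LP (0.392 CPM) and cow 33 highest at ML (0.739 CPM), both Fert+. In muscle at ML, cow 33 was lowest of the Fert+ cows in ADIPOQ (3.19 CPM) and cow 982 highest of the Fert- cows in CIDEC (7.43 CPM). LPL in liver at EL was highest in cow 3847 (16.8 CPM), a batch B library that also had the lowest DGAT2 there.

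The change of DGAT2 from LP to EL differed between muscle and liver by 0.62 on the log2 scale in the test of the difference itself (edgeR quasi-likelihood test, adjusted p = 0.043), and the adjusted p ran from 0.037 to 0.11 over 3 alternatives.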

How the results depend on the processing

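Of the fold changes recomputed under alternatives other than leaving out a cow, 479 kept direction and side of the threshold, 14 passed only under the alternative, 11 were lost and 12 reversed. For correlations, 337 did so, 3 passed only under the alternative and 29 reversed, and no reversed value was called in the main test. The cause of these shifts was not tested. Of 5 members called per comparison, muscle LP to EL went from 1 to 0 in Fert+ cows alone, without a gene filter and without batch B, and between 0 and 1 when single cows were left out. Muscle EL to ML went from 1 to 0 in Fert+ cows, to 2 in Fert- cows and to 2 with the replicate block, and between 1 and 2 when single cows were left out. Muscle LP to ML went from 0 to 1 with the replicate block. The share of all genes called in muscle moved as well. From LP to EL it went from 53.9% to 35.1% in Fert+ cows, 35.2% without a gene filter and 51.5% without batch B. From EL to ML it went from 59.4% to 42.1% in Fert+ cows, 46.0% in Fert- cows and 63.3% with the replicate block. From LP to ML it went from 6.08% to 9.39% with the replicate block. In liver, LP to EL went from 1 to 0 in Fert- cows, without a gene filter and without batch B (0 to 1 over left-out cows), EL to ML from 0 to 1 in Fert+ cows and with the replicate block and to 2 without batch B (0 to 1 over left-out cows), and LP to ML from 1 to 0 in either genotype alone (0 to 1 over left-out cows). The share of all genes called in liver moved too. From LP to EL it went from 3.24% to 0.0% in Fert- cows, 1.49% without a gene filter and 0.0% without batch B. From EL to ML it went from 38.2% to 28.2% in Fert+ cows, 41.8% with the replicate block and 30.2% without batch B. From LP to ML it went from 12.5% to 0.181% in Fert+ and 6.93% in Fert- cows. The block of cows changed the call of LPL and DGAT2 from EL to ML (muscle and liver) and of FABP4 from LP to ML in muscle. For genotype, the common-dispersion exact test gave 1 at LP and 4 at ML in muscle instead of 0, and the fit over 48 libraries gave 1 (FABP4) instead of 0 in liver at EL. The tissue difference from LP to EL went from 1 to 0 under RLE scaling and when no genes were filtered out. DGAT2 between tissues at ML passed without a gene filter (0.38, adjusted p = 0.035). Pairs correlated in liver at EL went from 0 to 1 with log2(CPM + 0.1).

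Fold changes that reversed were DGAT2 in muscle from LP to EL (-0.036 in Fert+ cows, -0.029 with the replicate block, -0.046 without batch B), CIDEC in muscle from LP to EL (0.26 in Fert+ cows), LPL in muscle from LP to EL (-0.036 in Fert- cows), FABP4 in muscle from EL to ML (-0.13 in Fert+ cows), FABP4 in liver from LP to EL (-0.95 in Fert+ cows, -0.52 without batch B), LPL by genotype in liver at EL (-0.17 without batch B, -0.10 with batch as a term), DGAT2 between tissues at LP (0.043 without a gene filter) and CIDEC between tissues from LP to EL (0.015 with the replicate block). When single cows were left out, these ran across 0: DGAT2 in muscle from LP to EL from -0.045 to 0.085, LPL in muscle from LP to EL from -0.018 to 0.16, FABP4 in liver from LP to EL from -0.25 to 0.46, CIDEC in liver from EL to ML from -0.32 to 0.0003, and by genotype FABP4 in muscle at EL from -0.13 to 0.59, LPL in liver at EL from -0.38 to 0.22, CIDEC in liver at EL from -0.16 to 0.51 and LPL in liver at ML from -0.45 to 0.016.

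Correlations that reversed with genotype means removed were, in muscle at LP, DGAT2 with ADIPOQ (-0.112), FABP4 (-0.106) and CIDEC (-0.013), in liver ADIPOQ with FABP4 at LP (0.034) and ML (-0.092), FABP4 with DGAT2 at EL (-0.008) and ML (-0.040), and FABP4 between tissues at ML (-0.150). In batch A alone they were, in muscle, DGAT2 with ADIPOQ (-0.061) and CIDEC (-0.022) at LP, FABP4 with LPL at ML (0.222) and LPL between LP and ML (-0.204), in liver ADIPOQ with CIDEC (-0.266) and LPL (0.611) at EL, LPL with DGAT2 at EL (0.033) and FABP4 with CIDEC at ML (-0.095), and between tissues FABP4 at LP (0.026) and ML (-0.182) and LPL at ML (-0.047). With log2(CPM + 0.1) they were ADIPOQ with DGAT2 in muscle at LP (-0.010), ADIPOQ with FABP4 in liver at LP (0.029) and CIDEC in muscle between EL and ML (0.104). With CPM without logs they were FABP4 with LPL in muscle at ML (0.078), ADIPOQ with LPL in liver at ML (-0.005) and ADIPOQ in muscle between EL and ML (-0.130). Without removal of means, r over 48 muscle libraries was 0.049 for ADIPOQ and LPL, 0.061 for ADIPOQ and DGAT2, 0.081 for CIDEC and LPL and 0.097 for FABP4 and DGAT2. Counts were small for CIDEC in muscle and for ADIPOQ and FABP4 in liver, which limits what could be detected there.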
